A study of Mus musculus with 6 samples.

Results

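The 10 genes described here encode enzymes that make serine, asparagine, proline and cysteine, together with the mitochondrial enzymes that take serine apart into glycine and one-carbon units. They were selected by symbol, and they were chosen because the deposited values of the stretched cells were below those of the control cells, so their lower level is a description and carries no test. All 10 symbols were found among the 22375 genes of the table, and 10 of 10 passed the filter on low values that left 11593 genes to be tested. RNA-seq was run on C2C12, an immortalised mouse myoblast line that proliferates as undifferentiated muscle precursor cells. The CON group held 3 libraries from cells that were not stretched, and the 4H group held 3 libraries from cells stretched cyclically for 4 h at 15% elongation. In both groups the cells grew on elastic plates coated with poly-lysine, and the labels name no genetic change in either. Both groups come from a single cell line, and the labels number biological samples without saying whether these were separate cultures. Every p-value therefore sets a difference against the spread between these 3 and 3 samples, moderated over all genes tested. The study addressed how muscle cells respond to mechanical load.

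The 10 genes together held 1777, 1721 and 1742 FPKM (fragments per kilobase of transcript, scaled to the mapped fragments of each library) in CON replicates 1, 2 and 3. In 4H replicates 1, 2 and 3 their sum was 622, 657 and 604 FPKM, which was 35.9% of the CON mean. Every 4H library lay below every CON library for each of the 10 genes, and the largest share of the control level kept by any of them was 55.7%, that of Mthfd2. Among all genes tested, 29.2% had a 4H group that lay wholly below the CON group. The log2 fold change (4H against CON, of FPKM + 0.5) was -1 or less for 8 of the 10 genes, against 1.35% of all genes tested, and the median over the 10 was -1.70 against -0.01 over all genes tested. Because the genes were picked on this contrast, nothing is read from these shares. In bulk RNA, fewer cells that express a gene and less of its RNA in each cell cannot be told apart.

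Serine is built from the glycolytic intermediate 3-phosphoglycerate in 3 steps, by PHGDH, PSAT1 and PSPH in turn. In mitochondria SHMT2 splits serine into glycine and a one-carbon unit carried on tetrahydrofolate, MTHFD2 oxidises that unit, and ALDH1L2 can release it as carbon dioxide while making NADPH. ASNS makes asparagine from aspartate and glutamine, ALDH18A1 and PYCR1 carry glutamate to proline, and CTH performs the last step of transsulfuration, which releases cysteine from cystathionine. Proliferating cells use these amino acids for protein, nucleotides and glutathione, and proline and glycine are the main residues of collagen. Many of these genes are known targets of ATF4, a transcription factor whose translation rises when amino acids run short or the endoplasmic reticulum is stressed, and which binds composite C/EBP-ATF elements with the core TGATGNAA.

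Promoter windows of 300 bases, from 250 bases before to 50 bases from the annotated start, were read from RefSeq sequence of build GRCm38.p6 for 8 of the 10 genes. Cth and Aldh1l2 had no window in the table used. TGATGNAA, searched on both strands, was present in the windows of 2 of these 8 genes, Asns and Pycr1, against 4.51% of 27025 genes with a window. The share was 2.63% among the 8952 genes with a window that were also tested, and 2 of 74 other genes of the same pathways held it (Got1 and Sqor). The 2 windows that hold the core are shown 5′ to 3′ on the strand of the gene, with TGATGNAA in capitals and, in Asns, also GTTACA, the companion element known from the nutrient-sensing unit of the Asns promoter.
Asns, chr6:7693160-7693459, minus strand: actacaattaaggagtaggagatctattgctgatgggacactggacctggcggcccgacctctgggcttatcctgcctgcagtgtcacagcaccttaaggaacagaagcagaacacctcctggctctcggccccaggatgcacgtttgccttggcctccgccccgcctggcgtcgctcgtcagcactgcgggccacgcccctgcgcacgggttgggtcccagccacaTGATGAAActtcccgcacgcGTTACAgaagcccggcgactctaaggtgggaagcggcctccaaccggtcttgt
Pycr1, chr11:120643699-120643998, minus strand: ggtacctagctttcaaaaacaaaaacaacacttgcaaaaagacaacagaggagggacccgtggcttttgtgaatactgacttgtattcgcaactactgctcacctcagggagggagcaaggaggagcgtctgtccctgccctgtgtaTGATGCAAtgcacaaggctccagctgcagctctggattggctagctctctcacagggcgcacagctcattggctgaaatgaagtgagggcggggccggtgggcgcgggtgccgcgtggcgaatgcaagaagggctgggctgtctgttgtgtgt
The core began 23 bases before the start in Asns, as TGATGAAA, and 103 bases before it in Pycr1, as TGATGCAA. GTTACA, a motif added after the windows had been seen, began 3 bases before the start in Asns and was in none of the other 7 windowed genes; 9.49% of all genes with a window held it on either strand. The E-box CACGTG was found in Aldh18a1 alone, 59 bases before the start, that is in 1 of 8 genes, against 8.09% of all genes with a window, 11.9% of those also tested and 7 of 74 other pathway genes, a share near the background. The palindromic cyclic AMP element TGACGTCA was in none of the 8 genes and in 2.03% of all genes with a window. These matches describe letters in the windows, and no binding was measured.

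All 3 genes of serine synthesis lay lower in the 4H group, by unequal amounts. Phgdh (ENSMUSG00000053398), the dehydrogenase that commits carbon to the pathway, measured 387, 377 and 383 FPKM in the CON libraries and 156, 158 and 151 FPKM in the 4H libraries. Its log2 fold change was -1.30 (SE 0.03), and the 4H mean was 40.4% ± 0.942 (SD, n = 3) of the CON mean. Phgdh was the most abundant of the 10 genes in both groups. Psat1 (ENSMUSG00000024640), the aminotransferase that adds nitrogen from glutamate, measured 274, 265 and 272 FPKM in CON and 144, 154 and 136 FPKM in 4H. Its log2 fold change of -0.90 (SE 0.05) left it at 53.5% ± 3.48 (SD, n = 3), and it was one of the 2 genes whose change was less than 2-fold. Psph (ENSMUSG00000029446), the phosphatase of the last step, measured 128, 118 and 122 FPKM in CON and 26.4, 32.5 and 29.6 FPKM in 4H. At -2.04 (SE 0.07), or 24.0% ± 2.50 (SD, n = 3) of the control level, it stood farther below the control than either earlier step.

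**Figure D1:**
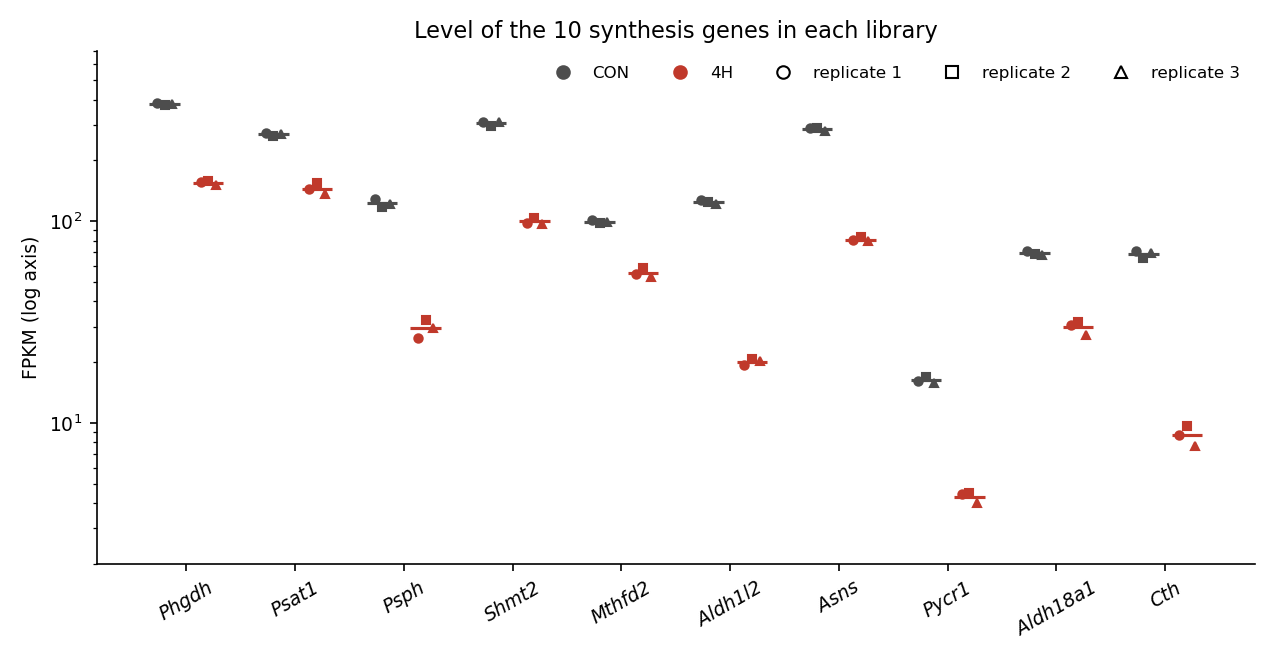
FPKM (log axis) of each of the 10 genes in the 3 CON and the 3 4H libraries, with symbols for the replicate number and bars for the group means. For every gene the 4H points lie below all CON points, with the widest gap for Cth and the narrowest for Mthfd2.

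The 3 steps therefore did not keep their proportions. The Psat1 level was 0.708 ± 0.00368 of the Phgdh level in CON and 0.935 ± 0.0408 of it in 4H (SD, n = 3 each). Psph stood at 0.321 ± 0.00999 of Phgdh in CON and at 0.191 ± 0.0190 in 4H. Neither ratio overlapped between the groups, so in 4H the first and second steps were closer in level and the third was relatively scarcer. Summed, the 3 genes held 775 ± 14.7 FPKM in CON and 329 ± 14.6 FPKM in 4H (SD, n = 3).

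The mitochondrial one-carbon genes showed the widest range of any group of steps. Shmt2 (ENSMUSG00000025403), the hydroxymethyltransferase that cleaves serine in mitochondria, measured 311, 296 and 309.7 FPKM in CON and 98.4, 104 and 97.1 FPKM in 4H. Its log2 fold change was -1.61 (SE 0.04), and 32.7% ± 1.21 (SD, n = 3) of the control level was left. Mthfd2 (ENSMUSG00000005667), the methylenetetrahydrofolate dehydrogenase and cyclohydrolase known for its high level in embryonic and proliferating cells, measured 101, 98.1 and 99.3 FPKM in CON and 54.7, 58.6 and 52.9 FPKM in 4H. With -0.84 (SE 0.04) it was the least changed of the 10 genes. Aldh1l2 (ENSMUSG00000020256), the formyltetrahydrofolate dehydrogenase, measured 128, 124 and 122 FPKM in CON and 19.3, 20.8 and 20.2 FPKM in 4H. That is a log2 fold change of -2.60 (SE 0.04), with 16.2% ± 0.637 (SD, n = 3) of the control level left. Between the least and the most changed gene of this sequence of reactions, Mthfd2 went from 0.326 ± 0.00549 to 0.554 ± 0.00915 of the Shmt2 level, whereas Aldh1l2 went from 0.407 ± 0.0135 to 0.201 ± 0.00619 of it (SD, n = 3), with no overlap for either ratio.

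Asns (ENSMUSG00000029752), the asparagine synthetase whose promoter window holds the core TGATGAAA, measured 290.3, 291 and 282 FPKM in CON and 80.6, 83.4 and 79.3 FPKM in 4H. Its log2 fold change was -1.82 (SE 0.03), and 28.2% ± 0.730 (SD, n = 3) of the control level was left. The Asns libraries lay close together, with a coefficient of variation of 1.81% in CON and 2.59% in 4H. Set against Atf4, Asns stood at 0.691 ± 0.0105 of its level in CON and at 0.410 ± 0.0171 in 4H (SD, n = 3), so the mRNA of the enzyme was lower by more than that of the factor.

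Both proline genes lay lower, although from very different levels. Aldh18a1 (ENSMUSG00000025007), the synthase that turns glutamate into pyrroline-5-carboxylate (P5C), measured 71.3, 68.7 and 68.3 FPKM in CON and 30.6, 31.6 and 27.4 FPKM in 4H, a log2 fold change of -1.21 (SE 0.05). Pycr1 (ENSMUSG00000025140), the mitochondrial reductase that completes proline and whose window holds TGATGCAA, measured 16.1, 17.0 and 15.7 FPKM in CON and 4.416, 4.499 and 4.015 FPKM in 4H, a log2 fold change of -1.80 (SE 0.07). Pycr1 was the scarcest of the 10 genes in both groups. The Aldh18a1 level was 4.28 ± 0.205 times that of Pycr1 in CON and 6.92 ± 0.0958 times in 4H (SD, n = 3).

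Cth (ENSMUSG00000028179), cystathionine gamma-lyase, measured 71.1, 65.8 and 69.6 FPKM in CON and 8.75, 9.62 and 7.70 FPKM in 4H. Its log2 fold change of -2.92 (SE 0.08) was the greatest of the 10, and 12.6% ± 1.396 (SD, n = 3) of the control level was left. Only 2 of the 11593 genes tested had a lower log2 fold change than Cth. Cbs, which makes the cystathionine that Cth cleaves, was near the floor of the table at 0.0779 ± 0.0375 FPKM in CON and 0.105 ± 0.0424 FPKM in 4H (SD, n = 3) and was not tested.

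**Figure D2:**
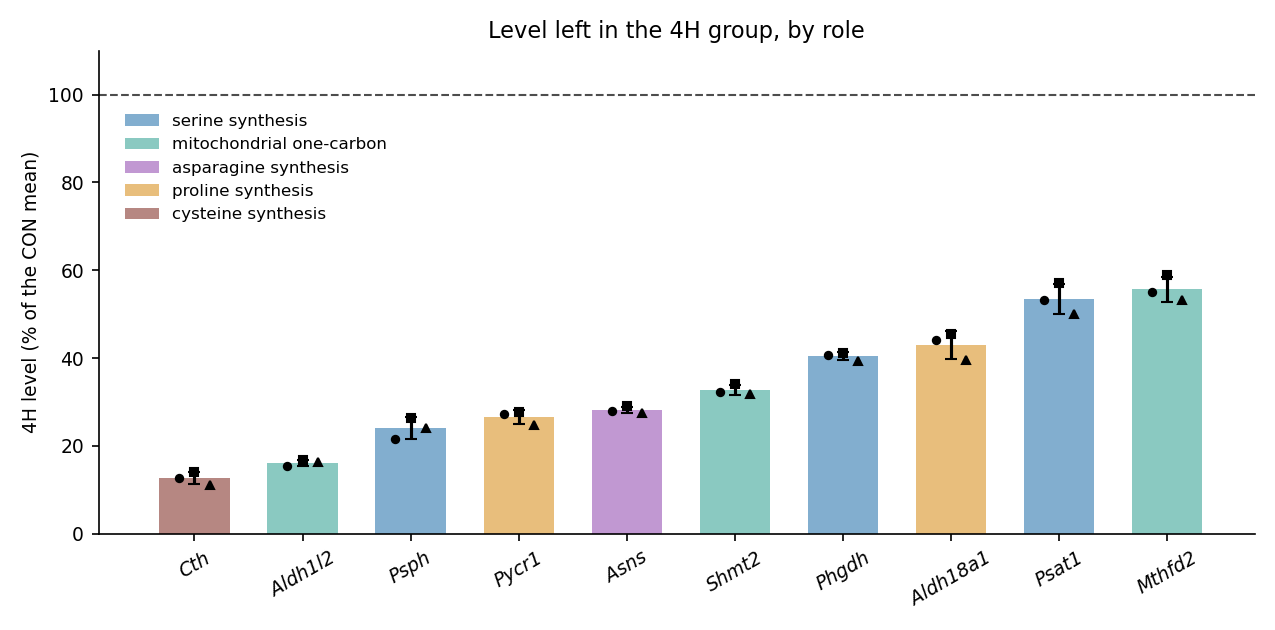
Level of each gene in the 4H group as percent of its CON mean, ordered from the lowest and coloured by role; bars are means, error bars the SD, and points the 3 4H libraries (circle, square and triangle for replicates 1 to 3). The bars run from 12.6% for Cth to 55.7% for Mthfd2, and genes of a role do not sit side by side.

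The order of the 10 levels shifted with the unequal changes. In CON it ran Phgdh, Shmt2, Asns, Psat1, Aldh1l2, Psph, Mthfd2, Aldh18a1, Cth and Pycr1, and the only neighbours whose libraries overlapped were Aldh1l2 with Psph and Aldh18a1 with Cth. In 4H it ran Phgdh, Psat1, Shmt2, Asns, Mthfd2, Aldh18a1, Psph, Aldh1l2, Cth and Pycr1, with overlap between Phgdh and Psat1 and between Aldh18a1 and Psph. Aldh1l2 and Psph, above Mthfd2 in CON, thus stood below it in 4H, whereas Phgdh kept the first place and Pycr1 the last. As a share of all FPKM in a library, the 10 genes took 0.449%, 0.435% and 0.439% in CON and 0.1616%, 0.1695% and 0.1562% in 4H.

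The related enzymes that carry out the same or neighbouring reactions were not used to choose the 10 genes, and they were tested with limma on log2(FPKM + 0.5), with Benjamini-Hochberg adjustment over all genes tested. Shmt1, the cytosolic counterpart of Shmt2, fell from 22.0, 21.2 and 19.9 FPKM in CON to 15.2, 14.9 and 15.2 FPKM in 4H (log2 fold change -0.46, SE 0.05, limma adjusted p = 0.000136). Shmt2 accordingly stood 14.6 ± 0.879 times above Shmt1 in CON and 6.63 ± 0.316 times in 4H. Mthfd2l, the closest relative of Mthfd2, rose from 6.15 ± 0.761 to 8.24 ± 0.774 FPKM (SD, n = 3; 0.40, SE 0.10, limma adjusted p = 0.0133), while Mthfd2 itself was lower. Mthfd2 was 16.4 ± 2.11 times as abundant as Mthfd2l in CON and 6.79 ± 1.03 times in 4H (SD, n = 3). Mthfd1, the trifunctional cytosolic enzyme, fell by 0.25 on the log2 scale (limma adjusted p = 0.00143), and Mthfd1l, the mitochondrial formate-releasing enzyme, fell by 0.74 (limma adjusted p = 3.37e-06). Aldh1l2 went from 1.79 ± 0.0362 to 0.485 ± 0.0230 times the level of Mthfd1l (SD, n = 3). Aldh1l1, the cytosolic counterpart of Aldh1l2, was at 0.217 ± 0.0462 FPKM in CON and 0.335 ± 0.0297 FPKM in 4H and was not tested. Of the mitochondrial carriers, Slc25a32, which carries folate, stood at 0.11 (limma adjusted p = 0.156) and Sfxn1, which carries serine, at -0.02 (limma adjusted p = 0.745), and neither passed the test.

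Among the enzymes related to those of proline synthesis, Pycr3, the cytosolic reductase, fell from 24.1 ± 0.481 to 18.9 ± 0.411 FPKM (SD, n = 3; -0.34, SE 0.04, limma adjusted p = 0.000277). Pycr1 stood at 0.675 ± 0.0298 of Pycr3 in CON and 0.227 ± 0.00993 in 4H (SD, n = 3). Oat, which makes P5C from ornithine rather than glutamate, rose by 0.21 on the log2 scale (limma adjusted p = 0.00403), and the Aldh18a1 level went from 1.73 ± 0.101 to 0.645 ± 0.0481 times that of Oat. Prodh, which degrades proline, fell from 3.58 ± 0.571 to 2.14 ± 0.231 FPKM (SD, n = 3; -0.62, SE 0.13, limma adjusted p = 0.00426).

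**Figure D3:**
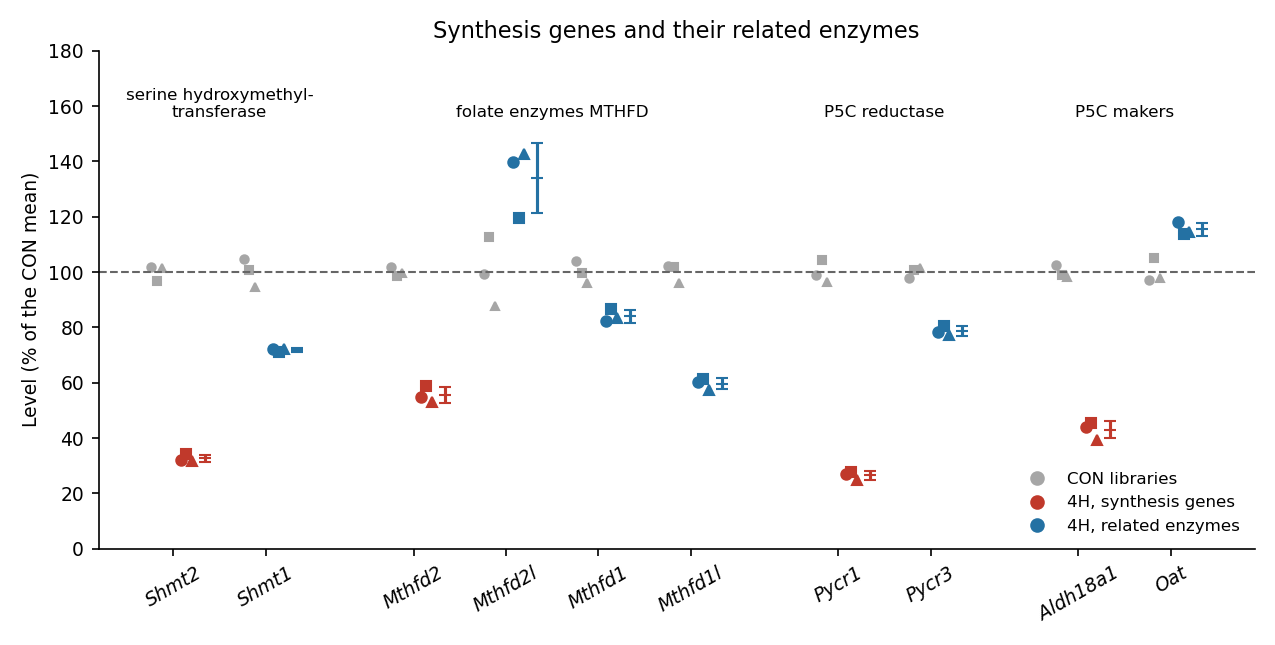
Level of 4 of the 10 genes (red) and of related enzymes (blue) in the 4H libraries, and of all of them in the CON libraries (grey), as percent of the CON mean; symbols mark replicates, and the bars beside the points are the 4H mean and SD. Pycr1 lies near 26.5% beside Pycr3 at 78.7%, and Shmt2 near 32.7% beside Shmt1 at 71.8%.

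Around Asns, the genes that supply or use aspartate and glutamine moved unevenly. Aspg, an asparaginase, was at 0.0616 FPKM or lower in every library, and Asrgl1 stood at -0.09 (limma adjusted p = 0.505). Glul, which makes the glutamine that Asns consumes, was at 20.5 ± 0.990 FPKM in CON and 21.2 ± 0.887 FPKM in 4H (SD, n = 3; 0.05, limma adjusted p = 0.501). Got2, the mitochondrial aspartate aminotransferase, itself fell by 0.36 on the log2 scale (limma adjusted p = 2.86e-05), and Asns went from 1.66 ± 0.0538 to 0.598 ± 0.00999 times its level (SD, n = 3). Aga, the lysosomal enzyme that frees asparagine from glycoproteins, rose by 0.30 (limma adjusted p = 0.0187) and lost the call without CON replicate 1, CON replicate 3 or 4H replicate 3 (0.0647, 0.0639 and 0.0605). Around Cth, Mat2a, which makes S-adenosylmethionine, stood at -0.06 (limma adjusted p = 0.118).

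The other genes that act on these amino acids were taken from 4 lists. Of 99 listed genes 75 passed the filter, and limma called 34 of them lower and 10 higher, that is 45.3% and 13.3%, where 24.1% of all genes tested were called lower and 22.6% higher. Their median log2 fold change was -0.16, against -1.70 for the 10 genes. At both thresholds (adjusted p of at most 0.05 and at least a 2-fold change), 2 of the 75 were lower and 1 higher, against 1.28% and 2.61% of all genes tested. Of these, Gcat lay inside the 2-fold limit without 4H replicate 3 (-0.96) or CON replicate 3 (-0.9994) and with a pseudocount of 1 (-0.98), and Ggct did so without CON replicate 2 (0.82). Only 3 of the 75 had a log2 fold change as low as that of Mthfd2, the least changed of the 10: Gpt2, Gcat and Got1. Because the 10 genes were chosen for their fall, the gap to their median and to Mthfd2 follows from that choice, and nothing is read from it. The lists were drawn up with earlier results of these data known.

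In the list of serine, glycine and folate genes, 11 of 25 tested were lower and 1 was higher, and the largest fall, ahead of that of Mthfd1l, was that of Gcat, which degrades threonine to glycine (-1.04, SE 0.09, limma adjusted p = 3.64e-05). The count of 1 higher reached 4 when CON replicate 2 was left out. In the asparagine, aspartate, glutamate and glutamine list, 5 of 12 were lower and 1 higher, led by Gpt2, the mitochondrial alanine aminotransferase (-1.88, SE 0.05, limma adjusted p = 7.74e-08), and Got1, the cytosolic aspartate aminotransferase (-0.91, SE 0.04, limma adjusted p = 1.62e-06). For this list the count of 1 higher ranged from 0 to 2 under the 16 alternative settings. In the proline, ornithine and arginine list, 7 of 14 were lower and 4 higher, among them Srm, spermidine synthase (-0.38, limma adjusted p = 0.000171), Ass1, argininosuccinate synthase (-0.36, limma adjusted p = 0.00802), and, in the other direction, Sms, spermine synthase (0.42, limma adjusted p = 0.000291). In the cysteine, methionine and transsulfuration list, 11 of 24 were lower and 4 higher. There Gclc, which starts glutathione synthesis from cysteine, fell by 0.66 (limma adjusted p = 3.81e-06) and Mpst, which moves sulfur from mercaptopyruvate, fell by 0.61 (limma adjusted p = 0.000690). Suox, sulfite oxidase, rose by 0.70 (limma adjusted p = 6.22e-06), and Ggct, which cleaves gamma-glutamyl peptides, rose by 1.10 (limma adjusted p = 0.00422).

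**Figure D4:**
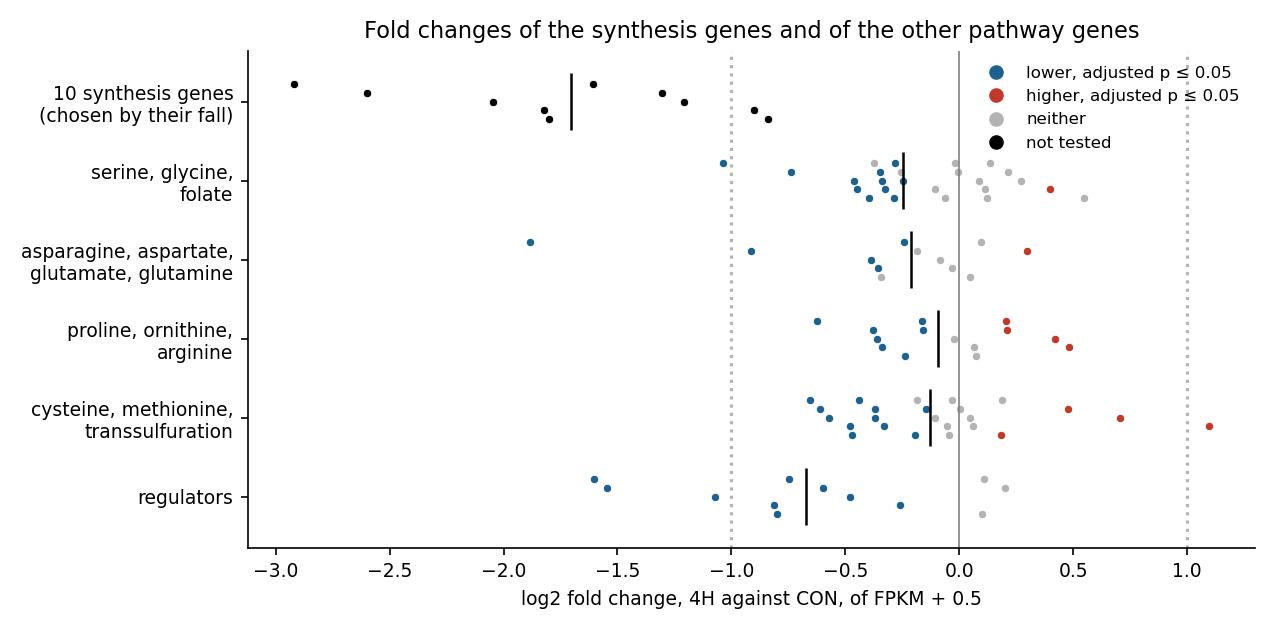
Log2 fold change (4H against CON, of FPKM + 0.5) of the 10 genes, which were chosen by their fall and not tested (black), and of the tested genes of the 4 pathway lists and of the regulators, coloured by the limma call; vertical bars are medians and dotted lines mark a 2-fold change. The median of the 10 genes is -1.70, and those of the 4 pathway lists lie between -0.25 and -0.09.

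Among 12 transcription factors and kinases known to act on such genes, limma called 9 lower, 0 higher and 3 neither way (24.1% and 22.6% of all genes tested were called lower and higher), and 1 of the 3, the kinase gene Eif2ak3, was higher at an unadjusted p under 0.05 (log2 fold change 0.20). The count of 0 higher became 1 without CON replicate 2 and 1 after rescaling each library to the same total. Atf4 measured 421, 415 and 414 FPKM in CON and 198, 212 and 185 FPKM in 4H (log2 fold change -1.07, SE 0.05, limma adjusted p = 9.06e-07). Atf5 (-1.60, SE 0.05, limma adjusted p = 1.66e-07) and Ddit3, the stress factor CHOP (-1.54, SE 0.04, limma adjusted p = 8.18e-08), were the other regulators that passed both thresholds. The median over the 12 was -0.67. ATF4 is controlled largely at translation, and protein was not measured here.

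The 10 genes were chosen on the difference between the groups, and within the 4H group they also deviated together. All 10 were highest in 4H replicate 2 of the 3 4H libraries, where 33.1% of all genes tested and 36.8% of the genes called lower were highest. Of the 10, 8 were lowest in 4H replicate 3, against 36.5% of all genes tested. In CON, 8 were highest in replicate 1, against 32.4%. The deviations were small, with a median over the 10 genes of 0.07 from the group mean in 4H replicate 2 and of -0.05 in 4H replicate 3 on the log2 scale, and Cth spanned the most, from 0.14 to -0.16. Atf4 lay 0.10 above its 4H mean in replicate 2 and at -0.09 in replicate 3. Ddit3 (0.05 and -0.06) and Gpt2 (0.06 and -0.10) deviated in the same directions in these 2 libraries. Atf5 was at 0.05 and 0.04 in them and lowest in 4H replicate 1, and Shmt1 was lowest in 4H replicate 2 (-0.02). The 10 genes were measured in the same 3 libraries and are not independent of each other, and this pattern was noticed in the data and not tested. Its size was far below the difference between the groups, of which the closest pair of libraries, those of Mthfd2, still differed 1.68-fold.

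**Figure D5:**
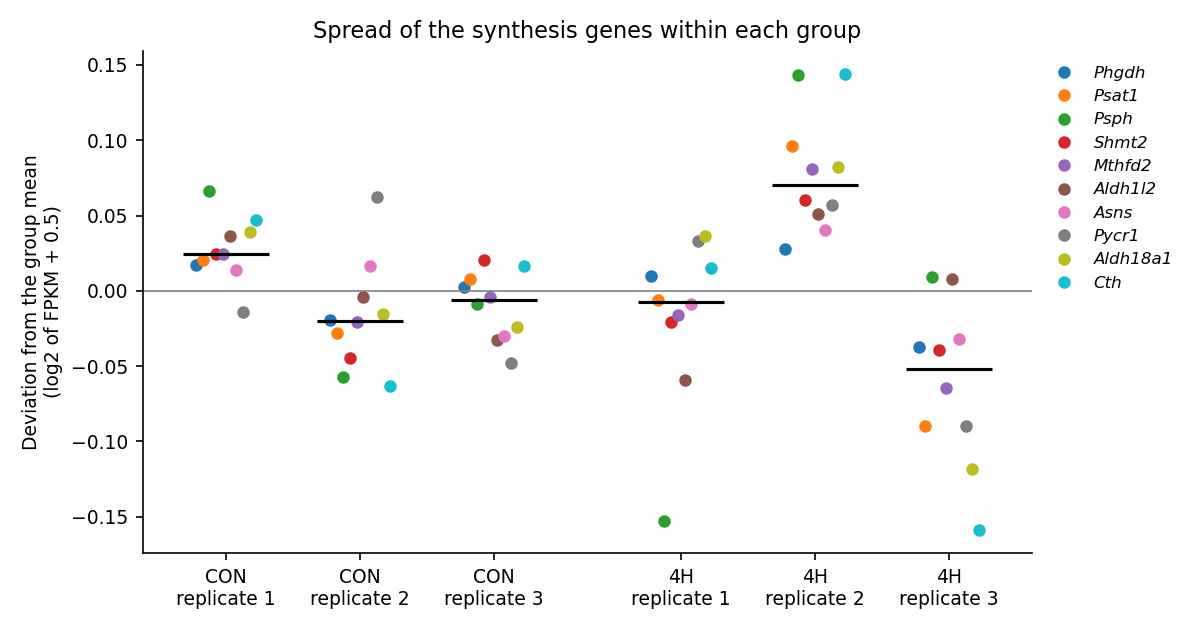
Deviation of each of the 10 genes from its own group mean in the 6 libraries (log2 of FPKM + 0.5); points are genes, offset sideways to keep them apart, and bars are medians over the 10. All 10 points of 4H replicate 2 lie above 0, and 8 of the 10 in 4H replicate 3 lie below 0.

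The profile over the 6 libraries most like the median profile of the 10 genes was sought among 8612 other genes averaging 5 FPKM or more, by the root mean square difference of log2(FPKM + 0.5) from the CON mean. The 5 nearest were Slc7a11 (0.0665), Ndrg1 (0.0699), Adh7 (0.0727), Slc7a5 (0.0834) and Atf5 (0.0865). Slc7a11 encodes the cystine and glutamate exchanger and went from 36.9, 34.7 and 33.9 FPKM in CON to 11.3, 11.7 and 10.3 FPKM in 4H. Slc7a5, a carrier of large neutral amino acids, went from 149.9, 148.2 and 156.8 FPKM to 48.6, 54.5 and 45.8 FPKM. Of the 10 genes themselves, Shmt2 lay nearest to their median profile at 0.0659 and Cth farthest at 0.867. Of the 8612 other genes, 33 lay closer to it than the median of the 10 and 491 closer than Cth, and likeness was measured on the same fall that chose the 10 genes.

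Some of the 10 genes share sequence with other loci, as annotated by GENCODE M21 on build GRCm38. Phgdh spans chr3:98313170-98339990 on the minus strand, and 35.8% of the 75-base stretches of its exons recur in exons of other annotated genes, chiefly Gm7901, Gm9347 and Gm8341, which were not analysed here. Exons of Psph (chr5:129765558-129787449, minus strand) overlap Cct6a on the other strand, with which Psph shares 8.07% of its stretches. Cct6a lay between 209 and 216 FPKM in all libraries (log2 fold change -0.00, limma adjusted p = 0.966) while Psph was lower in each 4H library. Shmt2 (chr10:127517123-127522444, minus strand) overlaps Ndufa4l2, which was at 0.416 FPKM or lower. Aldh1l2 (chr10:83487450-83534140, minus strand) overlaps D10Wsu102e, not analysed here, with which it shares 12.8% of its stretches. The libraries were stranded per the labels, and whether strand was used in counting is not given in the sources used here. For Asns (chr6:7675169-7693254), Pycr1 (chr11:120635712-120643769), Cth (chr3:157894248-157925077), Psat1 (chr19:15904678-15947337), Mthfd2 (chr6:83305691-83325908) and Aldh18a1 (chr19:40550257-40588463), all on the minus strand, no exon of another gene overlapped and no stretch recurred.

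The cell type was checked against markers. Of 8 myoblast markers 7 passed the filter, and their sum over all 8 lay between 195 and 201 FPKM in CON and between 284 and 299 FPKM in 4H, with 6 higher and 1 (Myf5) lower by limma, while the 10 synthesis genes were lower. The 8 markers of differentiated muscle summed to 2.52 FPKM or less, with Mymx and Actn2 at 0 in all libraries, and 1 of the 2 tested, Mymk, was higher (0.525 ± 0.165 FPKM in CON and 1.01 ± 0.120 FPKM in 4H, SD, n = 3; limma adjusted p = 0.0194). The 5 macrophage and leukocyte markers summed to between 6.73 and 8.51 FPKM in CON and between 16.5 and 18.6 FPKM in 4H, with 2 higher, and the defining Ptprc and Adgre1 were at 0 in all libraries. Endothelial, epithelial and adipocyte markers summed to 0.826 FPKM or less. The part of the muscle markers in the lower level of the synthesis genes was not tested.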

How the data were processed

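RNA from 3 CON and 3 4H samples of C2C12 cells was sequenced as paired-end poly(A) libraries. The authors deposited a single table of FPKM values, normalised by them for transcript length and mapped fragments. The labels name build mm10, and the sources used here name no aligner or counter. All 6 columns were assigned by the sample titles, and replicates were numbered as in the labels, so that 4H replicates 1, 2 and 3 are the columns 4H1, 4H3 and 4H4. The total FPKM per library lay between 385146 and 397260. The table holds no counts, so absolute depth is unknown and no counting interval is given; the value of a single fragment, read from low values of the same genes, differed by at most 1.55% between any of the 15 pairs of libraries. No libraries were identical.

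The 11593 genes of 22375 whose mean level reached 0.5 FPKM were fitted with limma 3.58.1 (R 4.3.3; lmFit and eBayes with trend, two-sided) on log2(FPKM + 0.5), with Benjamini-Hochberg adjustment over all of them. This scale understates fold changes of low genes. Thresholds were an adjusted p of at most 0.05 and an absolute log2 fold change of 1. FPKM values are not counts, so the count model of the study was not used. The fit was tested on simulated data. The 10 genes and the lists were chosen with earlier results of these data known. In each list, fixed partners of the 10 genes and the 2 largest rises and falls among called genes averaging 5 FPKM or more were named, with Atf4 and the regulators past both thresholds. Some genes that this rule selects are not reported here. Got2 and Sqor were named after their values were seen. Gene coordinates come from GENCODE M21 and promoter windows from RefSeq, both of build GRCm38. Other pseudocounts, filters, scalings, a replicate block and the omission of each library were tried.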

Additional observations from a re-analysis of the deposited data

How the results depend on the processing

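The median log2 fold change of the 10 genes stayed between -1.73 and -1.65 under 16 alternatives, the number at -1 or less stayed at 8 in each of them, and the number with no overlap stayed at 10 under the 3 scalings, the alternatives that could change it. Of 160 values for single genes of the 10, 153 moved by less than the spread between replicates and 7 moved by more, Pycr1 the farthest, from -1.80 to -1.89 with a pseudocount of 0.1 and to -1.70 with a pseudocount of 1. Leaving out each library in turn gave medians from -1.73 to -1.67. The other pathway genes called lower numbered 30 to 37 (34 as reported) and those called higher 9 to 14 (10 as reported). The genes past both thresholds numbered 148 lower and 302 higher as reported, 93 and 152 when the filter was raised to 5 FPKM, which tests fewer genes, and 532 higher after rescaling each library to the same total (TPM), where the cause was not tested. Sfxn1 changed sign, from -0.019 to 0.017 after rescaling to TPM, and it ranged from -0.055 to 0.0049 with each library left out, with no adjusted p under 0.05 in any of these. All 10 genes were highest in 4H replicate 2 under TPM and median-of-ratios scaling and 9 under quantile normalization, alternatives chosen after seeing the data. Whether samples with the same replicate number shared a run is not stated in the labels. Their deviations correlated at 0.02, -0.09 and -0.13, which cannot show whether the samples were paired. With a replicate block the calls over all genes were 2551 lower and 2413 higher, against 2792 and 2617 without it; higher calls outnumbered lower ones after rescaling to TPM (2334 lower and 3140 higher), with no filter (2598 and 2967), and by less without CON replicate 2 (2398 and 2406) or CON replicate 3 (2296 and 2342). With the block the median of the 10 genes was the same at -1.70. Without counts the depth behind each value cannot be given, and 3 samples a group limit what the smaller changes can show.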
